A study of Mus musculus with 11 samples.

Results

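One copy of Csf1r was lost in Csf1r_het mice, and their Tmem119-positive microglia are set here against those of wild-type (WT) mice across the 13223 genes, of 14739 in the table, whose mean normalized count over all 11 libraries was at least 10. Csf1r encodes a receptor tyrosine kinase bound by CSF-1 and IL-34, and microglia need its signal to survive and to divide. Ligand binding recruits Src-family kinases, PI3 kinase and Ras exchange factors, and the phosphatase encoded by Ptpn6 dampens such tyrosine kinase signals in myeloid cells. In humans, mutations that impair a single CSF1R copy cause an adult-onset leukoencephalopathy.

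The mice were aged C57BL/6 animals, and bulk RNA was sequenced from microglia sorted out of the cerebrum. The groups were Csf1r_het (Csf1r+/-, 3 libraries, 20, 24 and 21 months old for replicates 1, 2 and 3), Dhet (Csf1r+/-; Csf2+/-, 2 libraries, 21 and 24 months), Csf2_het (Csf2+/-, 3 libraries, 21 months) and WT (3 libraries, 21 months). Csf2 encodes GM-CSF, a myeloid growth factor. The labels do not say whether a library was a single mouse or a pool, so p-values measure the spread between libraries. Values are normalized counts, that is, read counts scaled by the size factor of their library, and log2 fold changes are Csf1r_het over WT on log2(normalized count + 1) with their standard error (SE). A gene is called where limma, fitted to all 4 groups at once, gave an adjusted p under 0.05. Gene coordinates are those of the deposited table, on mm10.

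Some libraries stood apart. Csf1r_het replicate 2 was the oldest of its group, had 58.8% of its counts in haemoglobin genes and 15.6% of genes at 0, and was separated from the others by the first principal component (25.1% of the variance). WT replicate 2 was separated by the second component (17.8%), with the lowest summed level of microglia markers, 143700 normalized counts against 285253 to 359708 in the Csf1r_het libraries and 304895 and 345222 in the other WT libraries. The shallowest library was Csf1r_het replicate 1 with 21037819 reads, and the deepest was Csf2_het replicate 2 with 53081638. Tmem119, the marker of the sort, held 16377, 16736 and 15711 normalized counts in the Csf1r_het libraries and 17695, 5432 and 19084 in the WT libraries, the lowest value again in WT replicate 2. These levels do not measure purity. Ttr, a choroid plexus marker, held 1119800, 781960 and 1409400 in the Csf1r_het libraries and 266810, 627560 and 337450 in the WT libraries. Without Csf1r_het replicate 2 and WT replicate 2 the median log2 fold change of all genes was -0.097, and list medians that moved by 1.5 times or more without this pair are given both ways.

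Csf1r itself (ENSMUSG00000024621.15, chromosome 18, 61105572 to 61132149, forward strand) held 17017, 40567 and 24022 normalized counts in the Csf1r_het libraries, against 93319, 41261 and 63538 in the WT libraries. The groups did not overlap, but Csf1r_het replicate 2 came close to WT replicate 2. The log2 fold change was -1.29 (SE 0.45), which did not pass over all genes (limma adjusted p = 0.184). It passed in 4 of the 24 alternative fits, with -1.59 without WT replicate 2 (limma adjusted p = 0.0483) and -1.93 without Csf1r_het replicate 2 and WT replicate 2 (limma adjusted p = 0.0222). Across all genes 174 were called, or 1.32% of those tested, with 57 higher (0.431%) and 117 lower (0.885%). With each library centred on its median the split was 82 higher and 84 lower, and the median of all genes moved from -0.12 to 0.0056 on the log2 scale. The medians of gene groups given below are to be read against -0.12. Their counts of positive or negative log2 fold changes are to be read against 5867 of 13223 tested genes with a positive one. Of the called genes 56 of the 57 higher and 117 of the 117 lower were protein coding. Their libraries did not overlap between the groups, which over all genes held for 8.61% with every Csf1r_het library above every WT library and for 12.8% below.

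Kinases and a phosphatase that act next to the receptor were among the genes that fell. Of 31 genes of CSF1R signalling tested, 5 fell and none rose, the median log2 fold change was -0.94, and 17 had all 3 Csf1r_het libraries below the WT range. Fgr (ENSMUSG00000028874.14, chromosome 4, 132974095 to 133001910, forward strand), a Src-family kinase of myeloid cells, held 1974, 2412 and 1043 normalized counts in the Csf1r_het libraries and 9995, 8875 and 6693 in the WT libraries (log2 fold change -2.30, SE 0.35, limma adjusted p = 0.0126). Ptpn6, which encodes the SHP-1 tyrosine phosphatase recruited by inhibitory receptors, held 4455, 3486 and 3386 in the Csf1r_het libraries and 14813, 9402 and 10898 in the WT libraries (log2 fold change -1.62, SE 0.27, limma adjusted p = 0.0191). The lowest WT library exceeded the highest Csf1r_het library 2.77-fold for Fgr and 2.11-fold for Ptpn6. Syk, the kinase that couples immunoreceptors and integrins to downstream signals, held 1057, 852 and 1531 in the Csf1r_het libraries and 3960, 4485 and 2568 in the WT libraries (-1.68, SE 0.31, limma adjusted p = 0.03). The Src-family kinase Lyn held 6382, 5004 and 6546 in the Csf1r_het libraries and 15432, 16217 and 11938 in the WT libraries (-1.28, SE 0.27, limma adjusted p = 0.0408). The median of the list was -0.89 without Csf1r_het replicate 2 and WT replicate 2, and between -1.10 and -0.81 with any 1 library left out.

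Of 26 exchange factors and related regulators that pass such signals to Ras and other small GTPases 5 fell and none rose (median -0.87), namely Rasgrp4 (-2.59), Def6 (-2.71), the exchange factor Arhgef1 (-1.63), the GTPase-activating Arhgap9 (-1.51) and Dock8 (-1.18), which organises leukocyte migration. A positive log2 fold change was seen for 2 of the 26. The adaptor Lcp2, a substrate of Syk-family kinases, fell by 1.55 on the log2 scale and was chosen after its values were seen. Feedback genes of the pathway that fell were the MAP kinase phosphatases Dusp5 (-3.16) and Dusp1 (-2.31), 2 of 10 tested in a list with a median of -0.59, or -1.0 without Csf1r_het replicate 2 and WT replicate 2.

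Paired inhibitory and activating receptors share these kinases and phosphatases. Of 20 inhibitory receptors of myeloid cells 3 fell and none rose (median -0.83), and of 21 activating receptors 3 fell and 1, Trem2, rose (median -0.79). Pirb (ENSMUSG00000058818.13, chromosome 7, 3711409 to 3720391, reverse strand), which binds MHC class I and recruits SHP-1, held 1530, 766 and 998.1 normalized counts in the Csf1r_het libraries and 8367, 5874 and 5605 in the WT libraries (log2 fold change -2.62, SE 0.33, limma adjusted p = 0.00855). Clec4a1, a C-type lectin receptor, held 1012, 883.1 and 572.7 in the Csf1r_het libraries and 6151, 6724 and 2490 in the WT libraries (-2.55, SE 0.45, limma adjusted p = 0.0246), with WT replicate 3 far below the other WT libraries. Ceacam1, an adhesion receptor with inhibitory motifs, held 3762, 1822 and 2257 in the Csf1r_het libraries and 12112, 8953 and 9241 in the WT libraries (-2.0, SE 0.31, limma adjusted p = 0.0157). None of the 3 overlapped between groups. Among activating receptors, Treml4 held 2525, 1975 and 1300 in the Csf1r_het libraries and 9005, 4756 and 7608 in the WT libraries (-1.88, SE 0.33, limma adjusted p = 0.0233), and Cd300lb (-2.21) and Cd300ld (-2.08) fell with it. In a list of Cd300 receptors added after the data were seen, 3 of 8 fell, the third being Cd300e (-2.27), and the median was -1.76.

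Adgre5 (ENSMUSG00000002885.14, chromosome 8, 83723251 to 83741326, reverse strand), an adhesion G protein-coupled receptor of leukocytes, had a p-value among the lowest in the table. It held 2690, 2664 and 1915 normalized counts in the Csf1r_het libraries and 19359, 15116 and 9063 in the WT libraries (log2 fold change -2.53, SE 0.31, limma adjusted p = 0.00855). The lowest WT library exceeded the highest Csf1r_het library 3.37-fold. Its relative Adgre4, chosen after its values were seen, held 2297, 3789 and 1694 in the Csf1r_het libraries and 13251, 9214 and 8136 in the WT libraries (-2.02, SE 0.39, limma adjusted p = 0.0321).

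**Figure D1:**
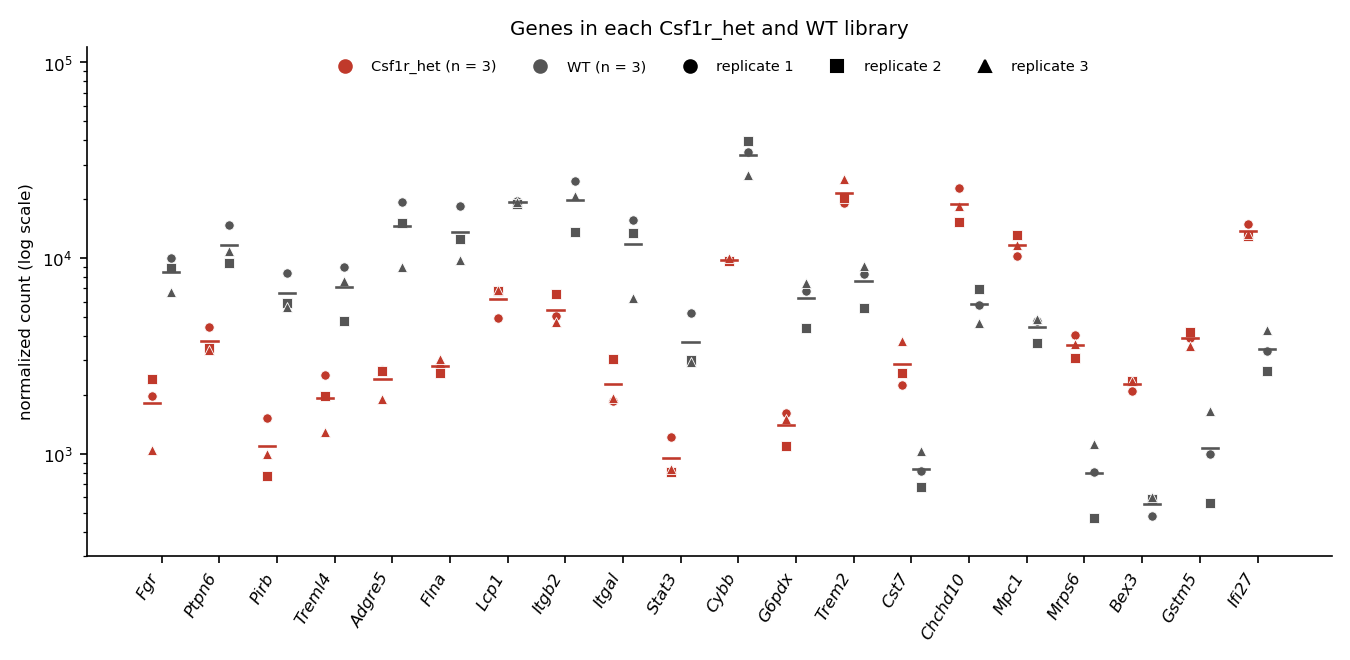
Normalized counts on a log scale for 20 genes, with Csf1r_het (red) to the left of WT (grey), a symbol for each replicate and a bar at the group mean. The first 12 genes lie lower in Csf1r_het and the last 8 higher, and in none of the 20 do the 3 Csf1r_het libraries overlap the 3 WT libraries.

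Promoters of a pair of these genes and of Trem2, which moved the other way, are shown because the letters GAGGAAG, a core of the binding site of the macrophage factor PU.1, stand in them. The windows run from 250 bases before to 50 after the gene start listed by RefSeq (GRCm38.p6), 5′ to 3′ along the gene, with matches on either strand in capitals. They were chosen after the values were seen.

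Pirb (chr7:3720333-3720632, reverse strand): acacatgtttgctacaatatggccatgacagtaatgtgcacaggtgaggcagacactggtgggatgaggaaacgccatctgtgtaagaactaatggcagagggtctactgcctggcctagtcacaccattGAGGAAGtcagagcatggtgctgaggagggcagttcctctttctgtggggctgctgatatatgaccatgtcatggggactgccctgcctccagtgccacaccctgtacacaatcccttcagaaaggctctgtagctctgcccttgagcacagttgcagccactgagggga
Fgr (chr4:132973845-132974144, forward strand): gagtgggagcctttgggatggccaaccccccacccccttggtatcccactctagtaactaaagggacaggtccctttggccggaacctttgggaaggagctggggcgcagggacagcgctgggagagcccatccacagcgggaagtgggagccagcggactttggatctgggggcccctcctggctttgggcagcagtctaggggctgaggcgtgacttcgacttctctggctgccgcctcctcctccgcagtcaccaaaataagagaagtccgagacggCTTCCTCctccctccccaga
Trem2 (chr17:48346151-48346450, forward strand): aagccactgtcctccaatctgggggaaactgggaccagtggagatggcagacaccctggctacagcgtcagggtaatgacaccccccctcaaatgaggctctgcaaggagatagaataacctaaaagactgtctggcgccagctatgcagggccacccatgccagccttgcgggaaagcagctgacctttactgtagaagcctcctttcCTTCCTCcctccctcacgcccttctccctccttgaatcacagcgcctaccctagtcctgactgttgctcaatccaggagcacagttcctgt

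The match began at position -120 in Pirb, +31 in Fgr and -41 in Trem2, counted from the start as +1. Such a match stood in 1546 of 9427 promoters of tested genes with an entry (16.4%), on either strand. An entry was found for 75.2% of the lower, 66.7% of the higher and 71.3% of all tested genes. With entries missing from each set, the shares of the called genes were not compared. A match is a run of letters and not a measured binding site. Spi1, which encodes PU.1, held 6883, 7335 and 4998 normalized counts in the Csf1r_het libraries and 14109, 9407 and 9787 in the WT libraries, and did not pass (-0.79, SE 0.28, limma adjusted p = 0.194).

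Some adhesion molecules and actin regulators fell too. Of 22 integrins and adhesion genes 4 fell and none rose (median -1.20, and -1.10 without Csf1r_het replicate 2 and WT replicate 2). Itgb2 (ENSMUSG00000000290.13, chromosome 10, 77530252 to 77565708, forward strand), the beta chain shared by leukocyte integrins and complement receptor 3, held 5073, 6577 and 4710 normalized counts in the Csf1r_het libraries and 24675, 13631 and 20828 in the WT libraries (log2 fold change -1.83, SE 0.31, limma adjusted p = 0.0191). Its partner Itgal, the alpha chain of LFA-1, held 1872, 3054 and 1919 in the Csf1r_het libraries and 15712, 13417 and 6233 in the WT libraries (-2.30, SE 0.38, limma adjusted p = 0.0177), with WT replicate 3 the lowest of the WT libraries. The hyaluronan receptor Cd44 also fell (-2.04). In Itgb2, Itgal and Cd44 the groups were apart.

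Lcp1 (L-plastin), which bundles actin in leukocytes, held 4966, 6780 and 6911 normalized counts in the Csf1r_het libraries and 19594, 18872 and 19354 in the WT libraries (log2 fold change -1.65, SE 0.26, limma adjusted p = 0.0157). The WT libraries were nearly level, and the lowest exceeded the highest Csf1r_het library 2.73-fold. Together with Myo1g (-2.51), a membrane-bound myosin, and Hcls1 (-1.71), it made 3 of 32 leukocyte actin regulators that fell, with none that rose and a median of -0.70. Flna (ENSMUSG00000031328.15, chromosome X, 74223461 to 74249820, reverse strand), filamin A, which ties actin to integrins, held 2793, 2589 and 3054 in the Csf1r_het libraries and 18576, 12472 and 9750 in the WT libraries (-2.23, SE 0.28, limma adjusted p = 0.00855). Msn, moesin, which ties actin to the membrane, held 4853, 9450 and 5187 in the Csf1r_het libraries and 33287, 13514 and 18798 in the WT libraries (-1.72, SE 0.37, limma adjusted p = 0.0452). Anxa2, a calcium-dependent membrane linker, held 5873, 2214 and 3988 in the Csf1r_het libraries and 18431, 11222 and 12276 in the WT libraries (-1.87, SE 0.36, limma adjusted p = 0.0317). Flna was nearly level across the Csf1r_het libraries and spread in WT, while Msn was highest of its group in Csf1r_het replicate 2. In a list of such linkers added after these genes had been seen to fall, 11 of 22 fell and none rose (median -1.40), so the count describes the choice as much as the data. The others were Zyx, Plec, Iqgap1, Capza1, Flot2, Pstpip1, Ptk2b and Bin2.

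Receptors and adaptors of innate and cytokine signalling were called in small numbers, each lower. In the Toll-like receptor list 3 of 24 fell and none rose (median -0.70, or -1.05 without Csf1r_het replicate 2 and WT replicate 2). They were Tlr13, a sensor of bacterial ribosomal RNA (-1.41), the shared adaptor Myd88 and its kinase Irak4 (-1.77). Myd88 held 1381, 533.4 and 811.7 normalized counts in the Csf1r_het libraries and 4662, 2663 and 2804 in the WT libraries (log2 fold change -1.95, SE 0.39, limma adjusted p = 0.0367). The surface receptors Tlr2 and Tlr4 had log2 fold changes of -0.50 and -0.44 and did not pass. The NF-kB list held no called gene among 20 tested, yet 19 of the 20 had a negative log2 fold change, 12 lay below the WT range and the median was -1.06. At an unadjusted p under 0.05 there were 11 of the 20, where over all genes there were 2139 of 13223 (16.2%), and edgeR called 0. Its lowest p-values belonged to the kinase Ikbkb (-1.45, limma adjusted p = 0.0737) and the co-factor Nfkbiz (-1.97, limma adjusted p = 0.0921).

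Of 37 genes of JAK-STAT signalling and cytokine receptors 3 fell and none rose (median -0.97, 20 below the WT range). Stat3 (ENSMUSG00000004040.16, chromosome 11, 100885098 to 100939540, reverse strand), the transcription factor downstream of IL-6 and IL-10, held 1224, 806.1 and 839.1 normalized counts in the Csf1r_het libraries and 5214, 3025 and 2949 in the WT libraries (log2 fold change -1.94, SE 0.32, limma adjusted p = 0.0178). Il4ra (-1.68), the receptor chain for IL-4, and Csf2rb (-1.49), the shared chain for GM-CSF, were the others. Reads of Csf2rb may be split with its close copy Csf2rb2. Tnfrsf1b, the second TNF receptor, held 2631, 3537 and 2564 in the Csf1r_het libraries and 16877, 10016 and 8214 in the WT libraries (-1.95, SE 0.34, limma adjusted p = 0.0233). It was apart in every library, as was Stat3. Il16 (-1.62) was the other gene of 19 in the cytokine list that fell, and Il1b did not pass (-1.81, limma adjusted p = 0.0595). Of 15 chemokine ligands limma and edgeR each called 0, with 2 at an unadjusted p under 0.05. The log2 fold change was positive for 11, with a median of 0.66 (1.15 without Csf1r_het replicate 2 and WT replicate 2) and Ccl3 at 1.20 (limma adjusted p = 0.193).

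Of 37 myeloid transcription factors 2 fell and none rose (median -0.73), the leukocyte quiescence factor Klf2 (-2.23) and Nfil3. Nfil3, a repressor also counted in the circadian list, held 275.9, 121.5 and 161.1 normalized counts in the Csf1r_het libraries and 965.8, 1840 and 1152 in the WT libraries (log2 fold change -2.85, SE 0.46, limma adjusted p = 0.0167). Its nearest libraries in the groups were 3.50-fold apart. Klf2 and Dusp1 are also immediate early genes that tissue dissociation can induce. That list had 2 of 22 lower, none higher, a median of -0.82 and 8 of 22 below the WT range, and its part in the falls was not tested. Of the 40 pathway and state lists 29 had a median below that of all genes, as the plot of list medians shows, and 6 changed sides of it without Csf1r_het replicate 2 and WT replicate 2.

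**Figure D2:**
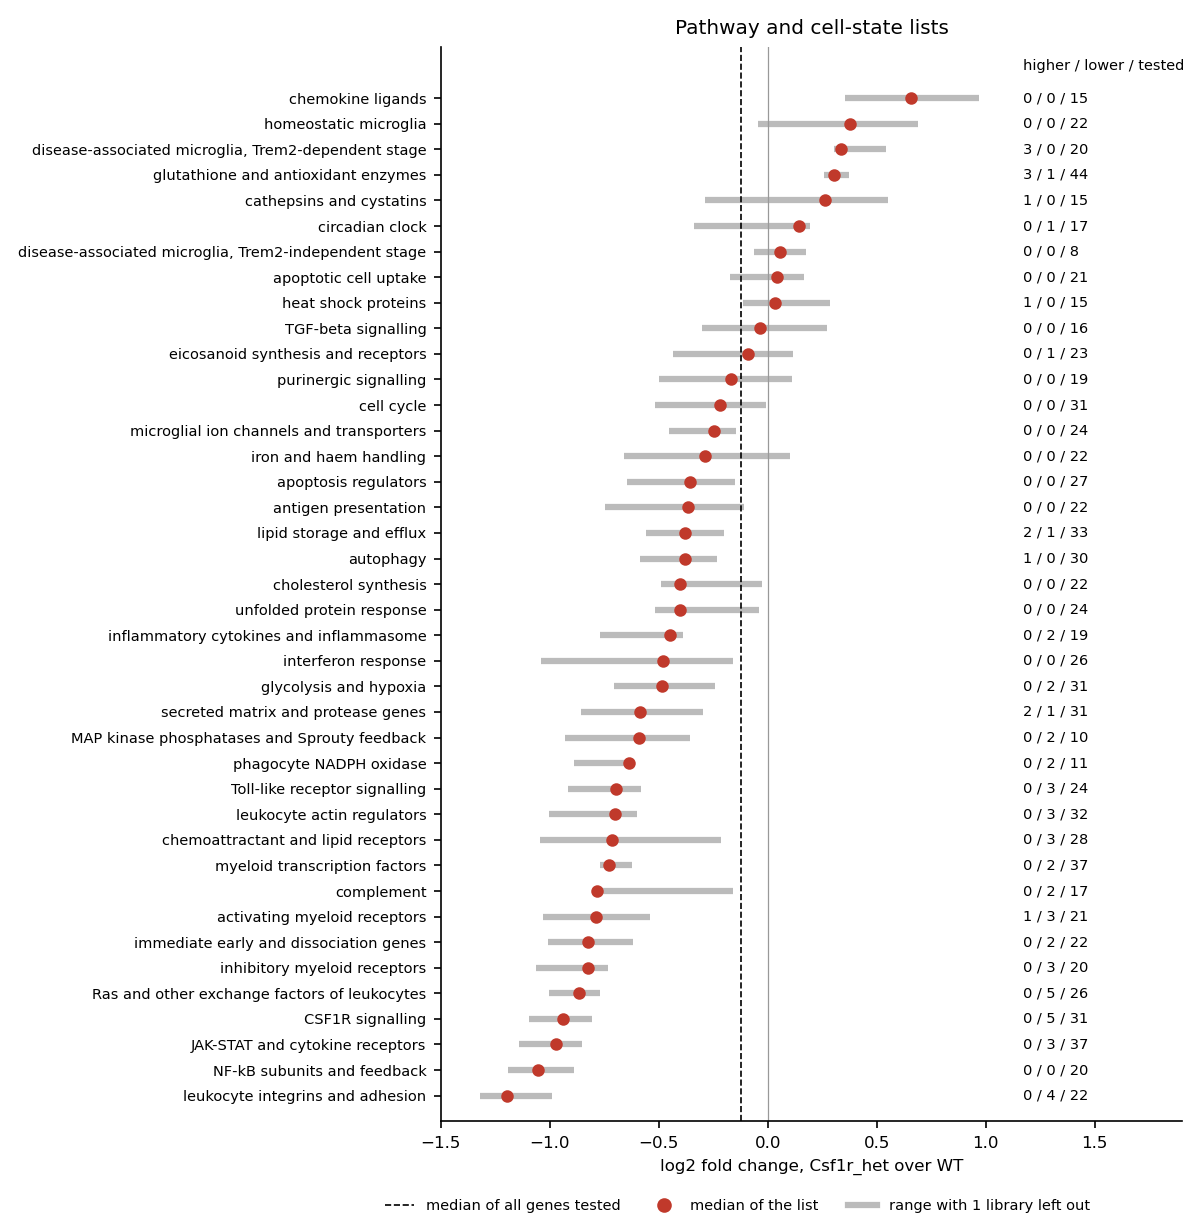
Median log2 fold change, Csf1r_het over WT, of 40 pathway and cell-state lists (red points), with the range of that median when any 1 of the 11 libraries is left out (grey bars) and the median of all genes (dashed line at -0.12). Integrins, NF-kB genes, cytokine receptors and CSF1R signalling lie lowest, chemokine ligands highest, and the numbers at the right give genes called higher, called lower and tested.

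Single enzymes that make or use NADPH fell. The phagocyte oxidase turns oxygen into superoxide with NADPH, glucose-6-phosphate dehydrogenase and its neighbours in the pentose phosphate pathway supply NADPH, and glutathione reductase spends it. Cybb (ENSMUSG00000015340.10, chromosome X, 9435252 to 9487771, reverse strand), the catalytic chain of the oxidase, held 9615, 9720 and 9996 normalized counts in the Csf1r_het libraries and 34969, 39791 and 26533 in the WT libraries (log2 fold change -1.77, SE 0.28, limma adjusted p = 0.0157). It was 1 of 2 that fell among 11 oxidase genes, none rose, and the median was -0.64, or -0.98 without Csf1r_het replicate 2 and WT replicate 2. G6pdx (ENSMUSG00000031400.10, chromosome X, 74409483 to 74429194, reverse strand) held 1616, 1095 and 1510 in the Csf1r_het libraries and 6815, 4421 and 7425 in the WT libraries (-2.13, SE 0.34, limma adjusted p = 0.0167). Nadk, which makes NADP from NAD, held 2029, 1054 and 1337 in the Csf1r_het libraries and 9580, 6143 and 6946 in the WT libraries (-2.39, SE 0.31, limma adjusted p = 0.00929). The nearest libraries of the groups were 2.65-fold apart for Cybb, 2.74-fold for G6pdx and 3.03-fold for Nadk. Gsr, glutathione reductase, held 3090, 2602 and 1982 in the Csf1r_het libraries and 14683, 7857 and 11630 in the WT libraries (-2.13, SE 0.36, limma adjusted p = 0.0216). The list of the pentose phosphate pathway and NADPH supply was added after the data were seen, and 3 of its 15 genes fell, the third being Pgd (-1.60), with none higher and a median of -0.65.

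Of 44 glutathione and antioxidant genes 3 rose and 1, Gsr, fell (median 0.30, or 0.54 without Csf1r_het replicate 2 and WT replicate 2, 10 above the WT range and 1 below). Those that rose were the glutathione transferases Gstm5, Gstm2 (2.53) and Gsta4 (2.40). Gstm5 held 3896, 4202 and 3565 normalized counts in the Csf1r_het libraries and 1001, 560 and 1659 in the WT libraries (log2 fold change 1.99, SE 0.39, limma adjusted p = 0.0348). WT replicate 2 was the lowest library for each of the 3 transferases. The Gstm genes are close copies of each other, so the share of reads given to each is uncertain.

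Genes of fuel use were called in both directions. Pygl, the glycogen phosphorylase of liver and myeloid cells, held 784.1, 866.8 and 1051 normalized counts in the Csf1r_het libraries and 3080, 3362 and 3867 in the WT libraries (log2 fold change -1.94, SE 0.34, limma adjusted p = 0.0233). Gyg, glycogenin, which primes glycogen synthesis, fell as well (-1.67). They were 2 of 14 in a glycogen list added after the data were seen, with a median of -0.21, which was -0.54 without Csf1r_het replicate 2 and WT replicate 2 and -0.013, above that of all genes in the same fit (-0.11), without WT replicate 1. Of 31 genes of glycolysis and hypoxia 2 fell, the lactate exporter Slc16a3 (-2.69) and the glucose transporter Slc2a6 (-2.47), and none rose (median -0.48). Plin2 (ENSMUSG00000028494.12, chromosome 4, 86648386 to 86670060, reverse strand), the coat of lipid droplets, held 1027, 1052 and 919.1 in the Csf1r_het libraries and 4347, 3800 and 5722 in the WT libraries (-2.19, SE 0.29, limma adjusted p = 0.00929). It was nearly level across the Csf1r_het libraries. In the same list of 33 lipid genes the monoglyceride lipase Mgll (1.36), which breaks down 2-arachidonoylglycerol, and the fatty acid carrier Fabp3 (1.61) rose, with a median of -0.38. Of 22 cholesterol synthesis genes limma and edgeR each called 0 and 2 had an unadjusted p under 0.05. Their median was -0.40, or -0.19 without Csf1r_het replicate 2 and WT replicate 2, and without Csf1r_het replicate 2 alone it was -0.028, above that of all genes (-0.057).

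Mitochondrial proteins encoded in the nucleus were among the genes that rose. Mpc1 (ENSMUSG00000023861.17, chromosome 17, 8282904 to 8297661, forward strand), a subunit of the carrier that brings pyruvate into mitochondria, held 10266, 13113 and 11710 normalized counts in the Csf1r_het libraries and 4796, 3688 and 4900 in the WT libraries (log2 fold change 1.40, SE 0.28, limma adjusted p = 0.0367). Chchd10 (ENSMUSG00000049422.7, chromosome 10, 75933130 to 75937747, forward strand), a protein of the space between the mitochondrial membranes, held 22779, 15294 and 18535 in the Csf1r_het libraries and 5785, 6948 and 4678 in the WT libraries (1.70, SE 0.32, limma adjusted p = 0.0311). Apoo, a component of the MICOS complex that shapes cristae, held 5320, 4742 and 4537 in the Csf1r_het libraries and 1137, 835.6 and 1649 in the WT libraries (2.06, SE 0.29, limma adjusted p = 0.0102). The lowest Csf1r_het library exceeded the highest WT library 2.10-fold for Mpc1, 2.20-fold for Chchd10 and 2.75-fold for Apoo. Mrps6, a protein of the mitochondrial ribosome, held 4043, 3072 and 3630 in the Csf1r_het libraries and 805.9, 467.8 and 1116 in the WT libraries (2.25, SE 0.32, limma adjusted p = 0.0109). In lists added after the data were seen, 4 of 35 genes of mitochondrial import and cristae rose (the fourth was Timm17a, 1.23) and none fell, with 12 above the WT range and a median of 0.52, or 0.79 without Csf1r_het replicate 2 and WT replicate 2. Of 78 mitochondrial ribosomal genes Mrps6 alone rose, with a median of 0.26, or 0.82 without Csf1r_het replicate 2 and WT replicate 2. Coq7 (1.72), an enzyme of coenzyme Q synthesis, and Fdx1 (1.65), a mitochondrial ferredoxin, also rose and were chosen after their values were seen. Genes encoded in mitochondrial DNA had a median of 0.79, with 12 of 13 positive and none called. Their share of the counts was 9.10% to 10.5% in the Csf1r_het libraries and 6.40% to 10.5% in the WT libraries.

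Some small X-linked genes of the Bex and Tceal family rose as well. Bex3 (ENSMUSG00000046432.12, chromosome X, 136270253 to 136271978, forward strand), known as a partner of the p75 neurotrophin receptor, held 2083, 2359 and 2364 normalized counts in the Csf1r_het libraries and 481.6, 587.2 and 601.3 in the WT libraries (log2 fold change 2.03, SE 0.28, limma adjusted p = 0.0102). Both groups were tight, and the lowest Csf1r_het library exceeded the highest WT library 3.46-fold. In this list, also added after the data were seen, 3 of 11 rose (Bex2 at 2.0 and Tceal9 at 1.37 were the others), 8 were above the WT range and the median was 2.0. Neurons express many of these genes. Neuron markers had 8 of 8 positive and none called (median 2.13), with summed levels of 4204, 2617 and 1188 normalized counts in the Csf1r_het libraries and 517, 694 and 927 in the WT libraries. The part of neuronal RNA in the Bex and Tceal values was not tested.

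Trem2 and Cst7 belong to the later disease-associated stage of microglia. That stage, described in amyloid and ageing models, depends on Trem2, a lipid-sensing receptor. Trem2 (ENSMUSG00000023992.14, chromosome 17, 48346401 to 48354147, forward strand) held 19029, 20381 and 25286 normalized counts in the Csf1r_het libraries and 8299, 5582 and 9161 in the WT libraries (log2 fold change 1.51, SE 0.32, limma adjusted p = 0.0408). Cst7, cystatin F, an inhibitor of lysosomal cathepsins, held 2234, 2575 and 3782 in the Csf1r_het libraries and 814.3, 673.6 and 1033 in the WT libraries (1.75, SE 0.37, limma adjusted p = 0.0414). With Spp1 (2.16) they made 3 of 20 that rose, none fell, 14 were positive, 7 lay above the WT range, and the median was 0.34 (0.40 without Csf1r_het replicate 2 and WT replicate 2). Of 22 homeostatic genes none was called, 19 were positive and 6 lay above the WT range, with a median of 0.38 that turned to -0.17 without those 2 libraries. Microglia markers had 10 of 11 positive and none called, with a median of 0.61, or 0.17 without those 2 libraries. The 8 genes of the earlier, Trem2-independent stage had no call and a median of 0.057, or 0.033 without them. Differences between these lists were not tested. Interferon response (0 of 26 called, median -0.48) and antigen presentation (0 of 22, median -0.37) lay below the median of all genes, and the 31 cell cycle genes (none called, median -0.22) were closer to it. Each of these positions rested on single libraries. Without Csf1r_het replicate 3 the interferon median was -0.16, level with that of all genes in that fit (-0.16). Without WT replicate 1 the antigen presentation median was -0.11, also level with that of all genes (-0.11), and the cell cycle median was -0.066 without WT replicate 3 and -0.0064 without Csf1r_het replicate 1. At an unadjusted p under 0.05 there were 6 homeostatic, 4 microglia marker, 5 interferon, 4 antigen presentation, 4 cell cycle and 1 early-stage gene, beside 16.2% of all genes, and edgeR called 0 in each of these lists.

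Receptors and secreted proteins of other lists were called singly. Of 28 chemoattractant and lipid receptors 3 fell and none rose (median -0.72), the chemokine receptor Cxcr4 (-2.40) and Gpr35 (-2.71) beside Adgre5. Of 17 complement genes 2 fell and none rose (median -0.79), the central component C3 (-1.95) and Itgb2. The median of the complement list was -0.16 without WT replicate 3, equal to that of all genes in the same fit (-0.16). Of 31 secreted matrix and protease genes Sbspon (4.36) and Spp1 rose and Tgfbi (-2.40), a matrix protein induced by TGF-beta, fell. The dipeptidase Dpep2 (-3.25), which converts leukotrienes, was the 1 of 23 eicosanoid genes called. In lists that otherwise held no call, the autophagosome protein Map1lc3a (1.78, of 30 autophagy genes) and the small heat shock protein Cryab (1.63, of 15) rose.

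Further genes that rose at high level were Ifi27, an interferon-inducible mitochondrial protein, and Rgs10, a regulator of G protein signalling that restrains microglial activation in mice. Ifi27 held 14873, 12998 and 13233 normalized counts in the Csf1r_het libraries and 3363, 2657 and 4316 in the WT libraries (log2 fold change 2.02, SE 0.28, limma adjusted p = 0.0102). Rgs10 held 8088, 12180 and 11682 in the Csf1r_het libraries and 3064, 5157 and 3501 in the WT libraries (1.46, SE 0.30, limma adjusted p = 0.039). Neither overlapped between groups, and none of the 26 genes of the interferon list was called. The histone gene Hist1h2bc also rose (1.85), and as 1 of many near-identical histone genes its reads cannot be assigned with certainty.

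Markers of other cells moved with these groups, and in bulk RNA fewer cells of a type and less RNA per cell cannot be told apart. Monocyte markers had 11 of 11 negative and 1 called (median -1.38, and -0.68 without Csf1r_het replicate 2 and WT replicate 2). Their summed level was 60210, 55725 and 69451 normalized counts in the Csf1r_het libraries and 114519, 254999 and 81931 in the WT libraries. The defining Ccr2 held 3626, 3930 and 4231 in the Csf1r_het libraries and 10496, 15123 and 3765 in the WT libraries, with WT replicate 3 inside the Csf1r_het range, and Ly6c2 did so too with 14663, 11769 and 21324 in the Csf1r_het libraries and 23041, 36798 and 12958 in the WT libraries. In a list of genes high in patrolling monocytes, added after the data were seen and sharing 9 of its 17 genes with other lists, 8 of 17 fell, 14 lay below the WT range and the median was -1.88. Its summed level was 55160, 37599 and 42871 in the Csf1r_het libraries and 155162, 207163 and 98933 in the WT libraries, apart in every library. Treml4, Cd300e, Adgre4, Itgal, Ceacam1, Cd300ld, Clec4a1 and Klf2 are the 8. The orphan nuclear receptor Nr4a1, on which patrolling monocytes depend, did not pass (-2.48, limma adjusted p = 0.0544). The part of monocytes in the falls of receptor, adhesion and cytoskeletal genes was not tested.

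Neutrophil markers varied within both groups, with summed levels of 102883, 29113 and 459735 normalized counts in the Csf1r_het libraries and 53409, 250736 and 803409 in the WT libraries, and none of 13 was called. Their median was -0.95, and -0.086 without WT replicate 3. Choroid plexus markers, from the epithelium that makes cerebrospinal fluid, had 2 of 13 higher, none lower and a median of 0.89. Calml4 held 4966, 3894 and 5369 in the Csf1r_het libraries and 1006, 1160 and 1333 in the WT libraries (log2 fold change 2.02, SE 0.29, limma adjusted p = 0.0109). Folr1, a folate receptor, held 12613, 7222 and 12371 in the Csf1r_het libraries and 4272, 1568 and 3610 in the WT libraries (1.85, SE 0.41, limma adjusted p = 0.0471). Their summed level, mostly Ttr, was 1348694, 916628 and 1621754 in the Csf1r_het libraries and 447879, 703510 and 516861 in the WT libraries. Markers of ependyma and motile cilia had 11 of 11 positive and 2 called, Pifo (2.75) and Dynlrb2 (1.93), with a median of 1.33 and summed levels of 8305, 4264 and 5485 in the Csf1r_het libraries and 1808, 1996 and 2333 in the WT libraries. The part of choroid plexus and ependymal RNA in the other genes that rose was not tested. Erythroid markers spread from 6958444 to 38705907 in the Csf1r_het libraries and from 4272916 to 12543993 in the WT libraries, with none of 10 called. No neutrophil or erythroid marker, 3 neuron markers and 1 mitochondrially encoded gene had an unadjusted p under 0.05, and edgeR called 0 in each of these lists.

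**Figure D3:**
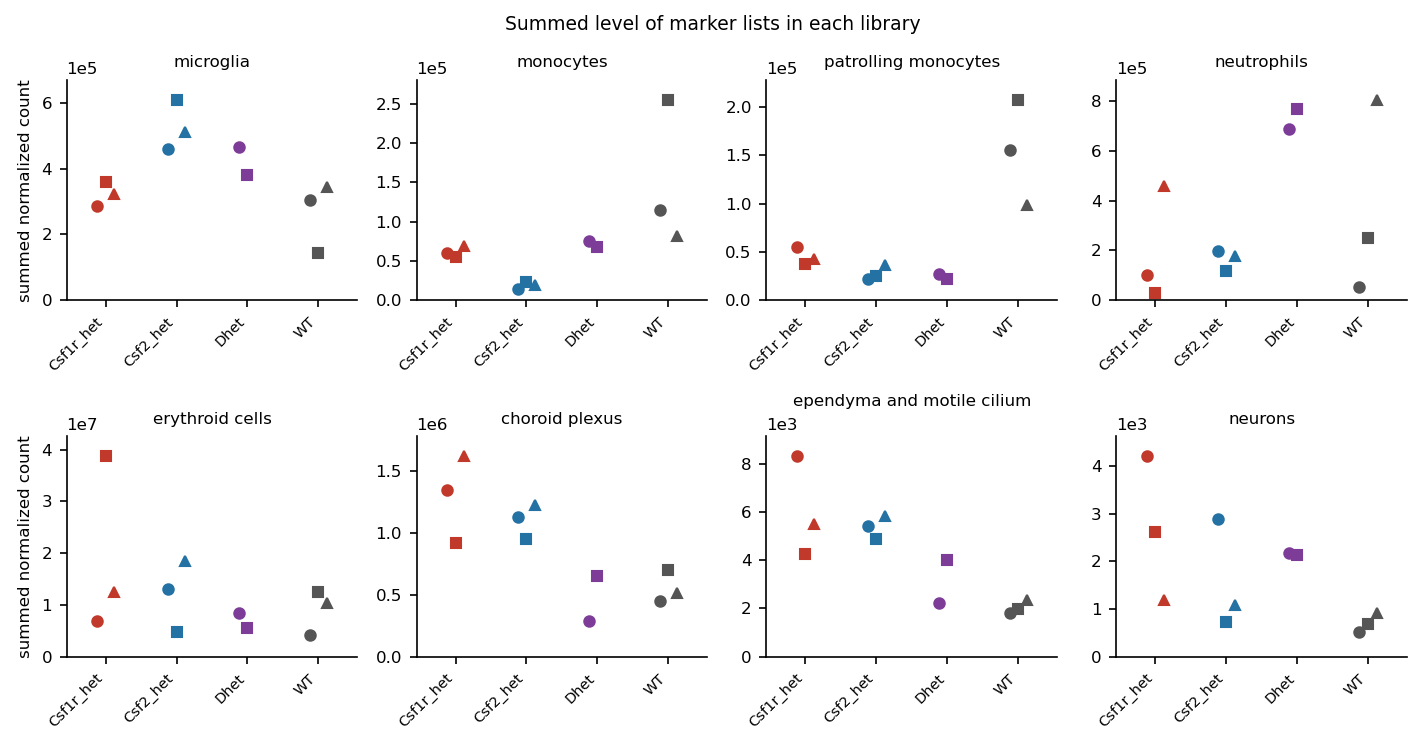
Summed normalized counts of 8 marker lists in each library (circle, square and triangle for replicates 1, 2 and 3), with Csf1r_het, Csf2_het and Dhet to the left of WT. The list of patrolling monocytes is highest in the 3 WT libraries, cilium markers are lowest in WT among the 3 groups with 3 libraries, and erythroid and neutrophil markers overlap between Csf1r_het and WT.

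Csf1r_het was then set against Csf2_het, the other single heterozygote. Only 3 genes were called, 0.0227% of those tested. They were Rps3a2 and Rps3a3, near copies of a ribosomal protein gene whose reads cannot be assigned with certainty, and the predicted gene Gm28438, and edgeR called 2. None of the 174 genes called against WT was called here, by limma or by edgeR. An unadjusted p under 0.05 was found for 28 of them (16.1%) and for 592 of all genes (4.48%), and both comparisons share the Csf1r_het libraries. The medians of those genes over Csf2_het were 0.20 for the 57 higher and 0.16 for the 117 lower, against -0.031 for all genes. Over WT they were 1.84 and -1.93, so at the median Csf2_het lay closer to Csf1r_het than WT did. Mean normalized counts in Csf1r_het, Csf2_het and WT were 1098, 597 and 6615 for Pirb and 21565, 23470 and 7681 for Trem2. For Csf1r they were 27202, 59615 and 66039. The called genes were chosen by their distance from WT, and Csf2_het against WT was not tested. A p that misses the threshold does not show that the heterozygotes were alike. The median SE of the log2 fold changes against WT was 0.57 over all genes.

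Loss of a Csf1r copy was also measured on a background that lacked a Csf2 copy, in Dhet against Csf2_het, which shares no library with Csf1r_het against WT. Of the Dhet libraries, replicate 2 carried high Ddx3y and low Xist, unlike every other library. Of the 57 genes that rose in Csf1r_het over WT, 5 (8.77%) had a positive log2 fold change in Dhet over Csf2_het, and their median was -0.81 there against 1.84 in Csf1r_het over WT. Of the 117 that fell 17 (14.5%) were negative, with medians of 0.72 and -1.93. Over all genes 51.6% were positive in Dhet over Csf2_het and the median was 0.029. The median of the 57 stayed between -0.93 and -0.71, and that of the 117 between 0.69 and 0.75, with any Dhet or Csf2_het library left out. In Dhet against Csf2_het 3 genes were called (0.0227%), Pygl and Nfe2 among them, each higher in Dhet and each lower in Csf1r_het against WT. The interaction, which tests whether the effect of the Csf1r copy differed between Csf2 genotypes, was called for 244 genes (1.85%). It included 44 of the 57 and 78 of the 117, which had been chosen by 1 arm of that same contrast and so favour a call. For Pirb the interaction was 4.2, for Cybb 2.76, for Trem2 -2.11 and for Chchd10 -3.12 on the log2 scale.

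**Figure D4:**
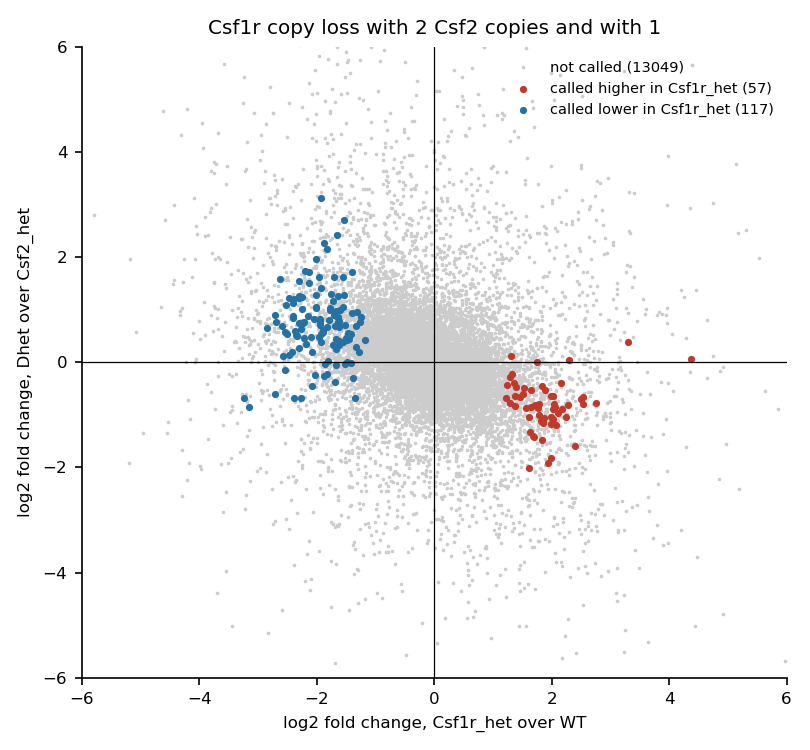
Log2 fold change of each tested gene in Csf1r_het over WT (x axis) and in Dhet over Csf2_het (y axis), with 57 genes called higher in Csf1r_het in red and 117 called lower in blue. Most red points lie below the horizontal zero line and most blue points above it, and 26 genes, none of them called, lie outside the plotted range.

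Neutrophil markers, monocyte markers and cell cycle genes had the highest medians of the lists in Dhet over Csf2_het, 3.71, 2.30 and 2.0, where Csf1r_het over WT had -0.95, -1.38 and -0.22. The patrolling monocyte list had -0.23 in Dhet over Csf2_het, and the Bex and Tceal family -0.69. Choroid plexus markers had -0.94 and markers of ependyma and motile cilia -0.81, where Csf1r_het over WT had 0.89 and 1.33. Neuron markers were positive in both, at 0.36 and 2.13. CSF1R signalling genes had a median of 0.30 in Dhet over Csf2_het and the membrane-cytoskeleton linkers one of 0.87.

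The number of calls rested on single libraries. Without WT replicate 1 or without Csf1r_het replicate 3 none of the 174 was called, although 1475 and 1936 genes had an unadjusted p under 0.05. Without Csf1r_het replicate 1 the counts were 3 higher and 15 lower, without Csf1r_het replicate 2 they were 12 and 25, and without WT replicate 2 they were 202 and 237. Without Csf1r_het replicate 2 and WT replicate 2 together, 248 genes were higher and 322 lower, and 48 of the 57 and 101 of the 117 were still called. The edgeR quasi-likelihood test on reads recovered from the values called 39 higher and 62 lower, all of them among the 57 and the 117. Under each of the 24 alternatives every one of the 174 kept its sign. For fits that left out libraries this was fixed in advance, because the Csf1r_het and WT libraries of these genes did not overlap. Of the 38 called genes described above with every library, 37 were called without those 2 libraries, with log2 fold changes 0.77 to 1.35 times those given, and Cst7 was not (limma adjusted p = 0.0533).

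**Figure D5:**
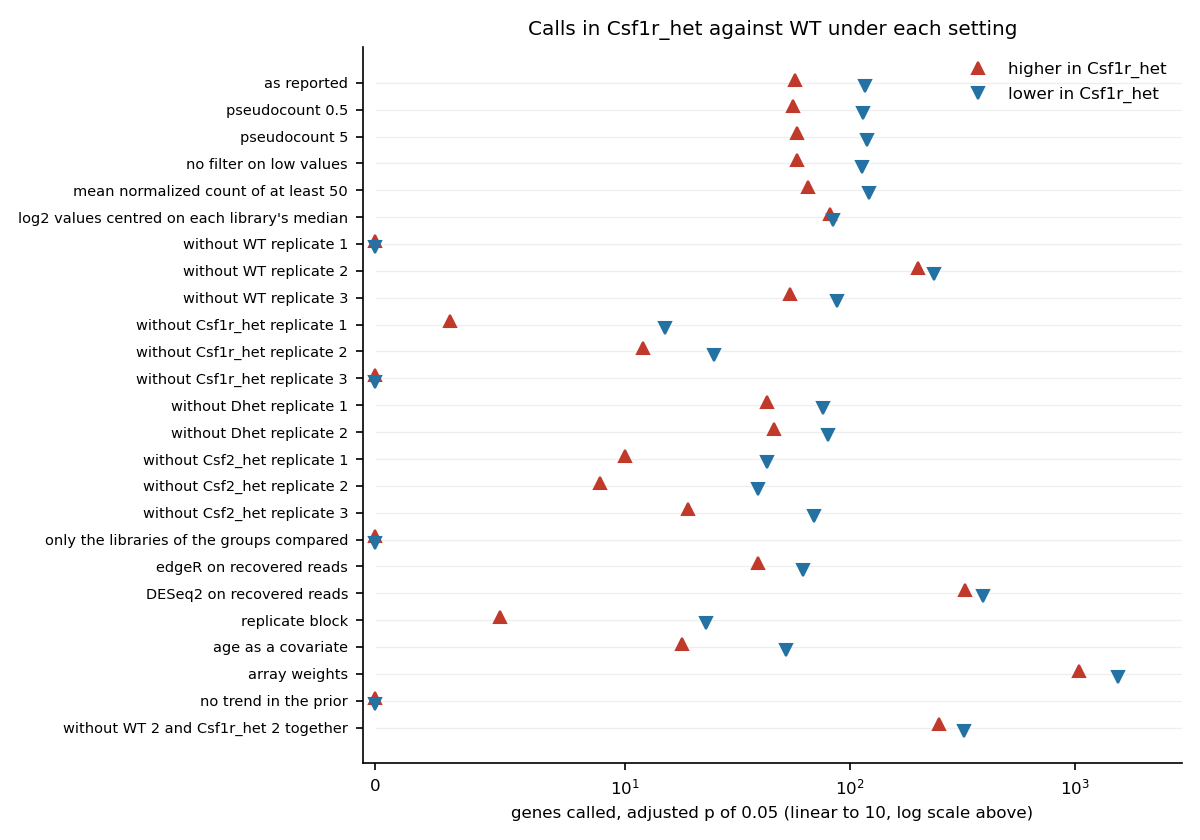
Genes called higher (red, upward triangles) and lower (blue, downward triangles) in Csf1r_het against WT under each setting, on an axis that is linear to 10 and logarithmic above. The counts are 57 and 117 as reported, 0 and 0 without WT replicate 1 or Csf1r_het replicate 3, and 1048 and 1554 with array weights.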

How the data were processed

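RNA was measured in Tmem119-positive microglia in 11 libraries of 4 groups taken from the labels. The authors deposited a signal for each gene in each library: its count after scaling by that library's size factor. Per the submitters' processing notes, kallisto 0.43.1, mm10 and DESeq2 were used, with no DESeq2 version stated. All values were whole multiples of 1 read within 0.02 reads (100% of values), which gave the depth of each library, 21037819 to 53081638 reads. With no raw counts, limma was the main test and the count tests on recovered reads were alternatives.

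The test took the 13223 genes that averaged 10 or more normalized counts, leaving out 1516. Values were log2(normalized count + 1), which understates changes of low genes. A limma fit with a trended prior (7 residual, 5.90 prior degrees of freedom) covered the 4 groups, with Benjamini-Hochberg adjustment at 0.05. The tools were limma 3.58.1, DESeq2 1.42.0 and edgeR 4.0.16 in R 4.3.3. On data simulated for Csf1r_het against WT over 13223 genes, 2 of 80 genes given a log2 change of 1 were called, 20 of 56 given 2, 53 of 64 given 4, and 7 of 13023 given none.

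Genes and lists were chosen with earlier results of these data known. The rule named genes at ranks 9 to 20 by rise and by fall with a mean of at least 50, the 10 most abundant in each direction, up to 4 called members per list (the 2 lowest p where none was called), 2 members of each marker list, and Csf1r. Genes outside it, among them G6pdx, Nadk, Pygl, Pgd, Gyg, Cd300e, Adgre4, Coq7, Fdx1, Timm17a, Tceal9, Pifo, Def6, Il1b, Nr4a1, Spi1, Lcp2, Tlr2, Tlr4, Nfe2, Tmem119, Ccr2 and Ly6c2, were chosen after their values were seen. There were 57 lists and 9 more added after the data were seen. Counts and medians describe them, with no test. Some genes that the rule names are not reported here. No source used here states the strand of the libraries, so overlapping genes may share reads.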

Additional observations from a re-analysis of the deposited data

Results flagged for a closer look

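The effect of the lost Csf1r copy was compared between Csf2 genotypes by a test of the difference itself, the limma interaction (Dhet minus Csf2_het) minus (Csf1r_het minus WT). The interaction was called for 244 genes, among them 44 of the 57 that rose in Csf1r_het over WT and 78 of the 117 that fell. The count was 14 with the replicate number as a block and 26 without a trend in the prior. Dhet had only 2 libraries, and its replicate 2 carried high Ddx3y and low Xist, unlike every other library. Without that library the median log2 fold changes in Dhet over Csf2_het were -0.93 for the 57 and 0.75 for the 117. With it they were -0.81 and 0.72. A fit without it holds 1 Dhet library, so the part of replicate 2 in the interaction calls is not settled. Ttr aside, 43 genes were described with every library. Of these 35 were called, with adjusted p-values from 0.00136 to 0.0432 by limma, and Csf1r, Lyn, Clec4a1, Treml4, Cst7, Adgre4, Spi1 and Tmem119 were not. Ttr was not called either (-3.0, limma adjusted p = 0.349). Most of the 43 had been chosen because they passed in Csf1r_het against WT, an arm of the same contrast. The interaction log2 differences of signalling and receptor genes were Fgr at 3.57, Syk at 2.37, Ptpn6 at 2.29, Stat3 at 2.48, Tnfrsf1b at 2.44, Myd88 at 2.67, Nfil3 at 3.51, Pirb at 4.2, Ceacam1 at 3.05 and Adgre5 at 3.62. Those of adhesion and cytoskeletal genes were Flna at 2.99, Msn at 2.88, Lcp1 at 2.51, Anxa2 at 4.14, Itgb2 at 2.50 and Itgal at 3.06. Those of metabolic genes were Cybb at 2.76, Gsr at 3.64, G6pdx at 3.86, Nadk at 3.60, Pygl at 5.05 and Plin2 at 2.54. The genes that rose in Csf1r_het over WT had interaction log2 differences below 0, Trem2 at -2.11, Chchd10 at -3.12, Mpc1 at -1.86, Apoo at -2.91, Mrps6 at -3.29, Bex3 at -2.68, Gstm5 at -3.02, Ifi27 at -2.91, Calml4 at -3.10, Folr1 at -2.99 and Rgs10 at -2.12. The monocyte genes Ccr2 and Ly6c2 had interaction log2 differences of 3.23 and 2.88. Markers of other cells also differed between the arms. Medians in Dhet over Csf2_het were 3.71 for neutrophils and 2.30 for monocytes. In Csf1r_het over WT they were -0.95 (-0.086 without WT replicate 3) and -1.38. Choroid plexus markers had -0.94 in Dhet over Csf2_het and 0.89 in Csf1r_het over WT. Markers of ependyma and motile cilia had -0.81 and 1.33. Neuron markers were positive in both, at 0.36 and 2.13. The part of these cells in the interaction differences was not tested.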

How the results depend on the processing

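Counts of calls depended on the fit. Each of the 57 higher and 117 lower genes kept its sign under all 24 alternatives. Where libraries were left out the sign could not turn, because the Csf1r_het and WT libraries of these genes did not overlap. Leaving out 1 library gave 0 to 202 genes higher and 0 to 237 lower in Csf1r_het against WT, 0 to 5 in Csf1r_het against Csf2_het, 0 to 85 in Dhet against Csf2_het (85 without Dhet replicate 2) and 47 to 896 in the interaction (896 without WT replicate 2). Leaving out a Csf2_het library changes the Csf1r_het against WT calls only through the shared estimate of the spread. With only the libraries of the compared groups, the counts were 0 higher and 0 lower (1717 at an unadjusted p under 0.05) and 0 for Dhet against Csf2_het. Without a trend in the prior they were 0 and 0 (1980 unadjusted), with 26 for the interaction and 1 for Dhet against Csf2_het. The edgeR test called 39 higher and 62 lower. DESeq2 called 326, 390, 55, 152 and 908 in the order higher, lower, Csf1r_het against Csf2_het, Dhet against Csf2_het and interaction. Array weights, which were lowest for WT replicate 2 (0.252) and Csf1r_het replicate 2 (0.273), gave 1048, 1554, 97, 20 and 1592. Without those 2 libraries together, an alternative added after the data were seen, the counts were 248, 322, 8, 63 and 1292. Age as a covariate gave 18 higher, 52 lower and 0 for Dhet against Csf2_het. A pseudocount of 5 gave 6 for Dhet against Csf2_het. The cause of these shifts was not tested.

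Same-numbered Csf1r_het and WT libraries did not deviate from their groups together, so the replicate numbers gave no sign of paired samples. After the group mean of each gene was subtracted, their log2 values correlated at 0.043, 0.046 and -0.011 (Pearson) for replicates 1, 2 and 3. With the replicate number as a block the counts were 5 higher, 23 lower, 0, 0 and 14. With 3 libraries a group most changes of a log2 fold of 2 or less went uncalled on simulated data, so an uncalled gene is not shown to be unchanged.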
